A study of Drosophila melanogaster with 12 samples.

Results

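The genes described here are 7 markers of *Drosophila* blood cells (hemocytes), chosen by gene name from the 17589 features of the whole series: the prophenoloxidase genes *PPO1* and *PPO2*, and *Hml*, *Pxn*, *NimC1*, *eater* and *He*. They were measured by RNA-seq in heads of 2-day-old flies, in 4 libraries for each of 3 genotypes. ND-75KDstrong flies were nSybGal4/ND-75 strong RNAi, ND-75KDweak flies were nSybGal4/ND-75 weak RNAi, and controls were nSybGal4/w[1118]. Per the study's methods all 3 genotypes also carried *Tub-Gal80ts* and were kept at 25°C, *nSyb-Gal4* drives expression in neurons, each knockdown rests on 1 RNAi line (HMS00853 for strong, KK108222 for weak), and the controls carried no RNAi line. Each library was made from 20 heads pooled, from 10 males and 10 females, and nothing in the labels says whether the 4 pools came from separate crosses, so p-values measure the spread between pools.

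Insect blood cells circulate in the open body cavity or sit attached to tissues, and the adult fly head holds some of them. Most are plasmatocytes, macrophage-like cells that engulf bacteria and dying cells and deposit extracellular matrix, while a minority are crystal cells, which store prophenoloxidase and release it when they burst. Once cleaved, phenoloxidase oxidises phenols to quinones, the first step towards the black pigment laid down at wounds and around invaders (melanization). RNAi was directed to neurons, so none of these cells is itself the driver's target, and in RNA from whole heads fewer cells of a type and less RNA per cell cannot be told apart.

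Total counts were between 19309456 and 34169998 per library. *ND-75*, the RNAi target and a core subunit of mitochondrial complex I, had 548, 538, 454 and 639 CPM (counts relative to the TMM-scaled library total) in ND-75KDstrong heads, against 716, 853, 1380 and 832 CPM in control heads. ND-75KDweak heads had 641, 665, 617 and 565 CPM, so every knockdown library of both lines lay below every control library. In the fit across all features this did not reach the threshold (edgeR quasi-likelihood test, Benjamini-Hochberg adjusted p = 0.117 for ND-75KDstrong and 0.116 for ND-75KDweak, log2 fold change -0.79 and -0.59). Between the knockdowns the *ND-75* levels overlapped. The log2 fold change of ND-75KDstrong against ND-75KDweak was -0.18 (standard error 0.12, edgeR adjusted p = 0.432), so these heads show no clear difference in *ND-75* between the 2 lines. The labelled tissue had its markers: all 8 neuronal and all 10 photoreceptor genes listed for this purpose were measured above the low-count filter. Control replicate 3 stood apart from the other libraries, with counts for 12966 features against 13729 to 14967 elsewhere, and ND-75KDstrong replicate 4 had the second fewest (13729). ND-75KDweak replicate 2 stood apart from the other ND-75KDweak libraries in the genes described here. It was set aside on the levels of these genes, so results without it are no independent check of them. For the genes described here, some of the log2 fold changes and ratios that rest on these libraries are also given without them. *ND-75*, which was highest in control replicate 3 (1380 CPM), was tested with all libraries only. The same holds for the neighbouring genes, the related genes and the markers of other cell types named below.

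All 7 genes were found and passed the low-count filter in all 3 comparisons. Coordinates are those of the deposited tables, and they equal the gene positions of the Ensembl BDGP6.54 annotation for all 7 genes. *PPO1* (FBgn0283437) lies on chromosome 2R at 17887220 to 17889973 on the minus strand and has 6 exons. It sits inside the potassium channel gene *Elk*, which runs on the plus strand, and shares 0 exon bases with it. *PPO2* (FBgn0033367) lies on the same arm at 9042261 to 9044709, minus strand, with 4 exons. *Hml* (FBgn0029167) is on 3L at 13846054 to 13860001, plus strand, and is the longest of the 7 transcripts, with 26 exons and 11756 exonic bases. *Pxn* (FBgn0011828) is on 3L at 2601455 to 2630064, minus strand. It shares 82 exon bases with *CG16986* on the other strand and 151 with *lncRNA:CR45660* on its own. *eater* (FBgn0243514) is on 3R at 27095867 to 27099679, minus strand, with 4 exons. *NimC1* (FBgn0259896, 2L at 13973158 to 13976769) and *He* (FBgn0028430, 2L at 13972096 to 13972947) are neighbours in a cluster of Nimrod genes, both on the minus strand and both with 2 exons. *He* is the shortest, with 673 exonic bases, of which 78 overlap *NimB5* on the other strand. The library kit does not mark strand, so reads in these shared stretches cannot be assigned to 1 gene, and the values of *Pxn* and *He* carry that uncertainty.

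On the scale of the authors' FPKM values, which divide by gene length, the 7 genes spanned a wide range of levels. *PPO2* was highest, at a mean level of 34.2 FPKM over the 12 libraries, followed by *Pxn* at 29.7 FPKM and *PPO1* at 26.4 FPKM. *Hml* had a mean level of 15.1 FPKM, *NimC1* 12.5 FPKM, *eater* 4.06 FPKM and *He* 0.733 FPKM. The first places were not settled: *PPO2* was above *Pxn* in 5 of 12 libraries and *Pxn* above *PPO1* in 7 of 12. *PPO1* was above *Hml*, and *Hml* above *NimC1*, in 10 of 12 libraries each. *NimC1* exceeded *eater*, and *eater* exceeded *He*, in 12 of 12. The order depended on genotype. *PPO1* was above *Hml* in 4 of 4 libraries of each knockdown and in 2 of 4 control libraries, where the mean levels were 15.6 FPKM for *PPO1* and 15.9 FPKM for *Hml*. *PPO2* was above *Pxn* in 2 of 4 ND-75KDstrong libraries, in 3 of 4 ND-75KDweak libraries and in 0 of 4 control libraries, and *Pxn* was above *PPO1* in 2, 1 and 4 libraries of these genotypes.

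*PPO1* encodes one of the crystal cell prophenoloxidases, the form released quickly from burst cells. It had 102, 61.2, 113 and 99.9 CPM in ND-75KDweak heads, against 38.1, 41.8, 33.3 and 35.4 CPM in control heads. All 4 ND-75KDweak libraries were above all 4 controls, although replicate 2 lay well below the other 3. *PPO1* rose 2.55-fold in ND-75KDweak flies (log2 fold change 1.35, standard error 0.19, edgeR adjusted p = 0.00171), 96th of 10415 features by p. Without ND-75KDweak replicate 2 and control replicate 3 the log2 fold change was 1.45 (edgeR adjusted p = 6.96e-06). Replicate 2 was left out for its low level of this gene, so the larger difference follows in part from that choice.

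ND-75KDstrong heads lay between the other genotypes for *PPO1*, with 56.5, 49.3, 54.4 and 60.6 CPM. These 4 values were above every control library and below every ND-75KDweak library. Against ND-75KDweak, *PPO1* fell by 0.76 on the log2 scale (standard error 0.17, edgeR adjusted p = 0.0187). Against control the difference was 0.57 on the log2 scale (standard error 0.13), with an adjusted p of 0.0565 in edgeR, which missed the threshold. It passed in edgeR with the DESeq2 size factors (adjusted p = 0.0496), in DESeq2 (adjusted p = 0.00265) and without control replicate 3 and ND-75KDstrong replicate 4 (log2 fold change 0.50, edgeR adjusted p = 0.0270). It also passed without control replicate 3 alone (edgeR adjusted p = 0.0480). In 11 of 15 alternatives this difference stayed uncalled. With a replicate block the edgeR adjusted p was 0.381, and in the fit of all 12 libraries it was 0.0952. The call against ND-75KDweak was lost when ND-75KDstrong replicate 2 (edgeR adjusted p = 0.0564) or ND-75KDweak replicate 1, 3 or 4 was left out (adjusted p = 0.0617, 0.0624 and 0.0606).

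*PPO2* encodes the second crystal cell enzyme, which is stored in the crystals that give the cells their name. It had 133, 75.3, 145 and 129 CPM in ND-75KDweak heads, against 68.0, 68.9, 47.9 and 54.2 CPM in control heads. Again every ND-75KDweak library was above every control, and replicate 2 was the lowest of the 4, close to the highest control. *PPO2* rose 2.03-fold (log2 fold change 1.02, standard error 0.21, edgeR adjusted p = 0.0139). The call was lost without ND-75KDweak replicate 1 (adjusted p = 0.0527) or replicate 4 (adjusted p = 0.0526). It held without replicate 2 and control replicate 3 (log2 fold change 1.09, adjusted p = 0.000123), where leaving out the lowest ND-75KDweak library favours the call.

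In ND-75KDstrong heads *PPO2* had 46.9, 49.8, 65.0 and 60.7 CPM, which overlapped the controls. The log2 fold change against control was -0.10 (standard error 0.17, edgeR adjusted p = 0.908). Against ND-75KDweak all 4 ND-75KDstrong libraries were lower, and *PPO2* fell by 1.10 on the log2 scale (standard error 0.20, edgeR adjusted p = 0.00609). The genotypes thus took a different order for these 2 related genes: *PPO1* was intermediate in ND-75KDstrong heads, and *PPO2* overlapped the controls, with 1 library (replicate 1) below the lowest of them. The third prophenoloxidase gene, *PPO3*, known from lamellocytes, was near the limit of detection, between 0.818 and 1.25 CPM in ND-75KDstrong, 0.903 and 1.11 CPM in ND-75KDweak and 0.844 and 2.60 CPM in control heads, and was not called in any comparison. Of 4 tested genes within 20 kb of *PPO2*, 1, *ana*, was called higher in ND-75KDweak than in control (log2 fold change 0.97, edgeR adjusted p = 0.0375). In that comparison 2.56% of all features were called higher. Between the knockdowns *ana* fell by 1.09 (adjusted p = 0.000823), and in ND-75KDstrong against control it was not called (-0.15, adjusted p = 0.913). Other members also had called neighbours within 20 kb in ND-75KDweak against control. Near *eater* 1 of 11 was higher and 2 were lower, near *Pxn* 1 of 10 was lower, and near *NimC1* and *He* 2 of 11 were lower. Near *PPO1* 0 of 2 and near *Hml* 0 of 3 were called. A link between *ana* and *PPO2* was not tested.

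**Figure D1:**
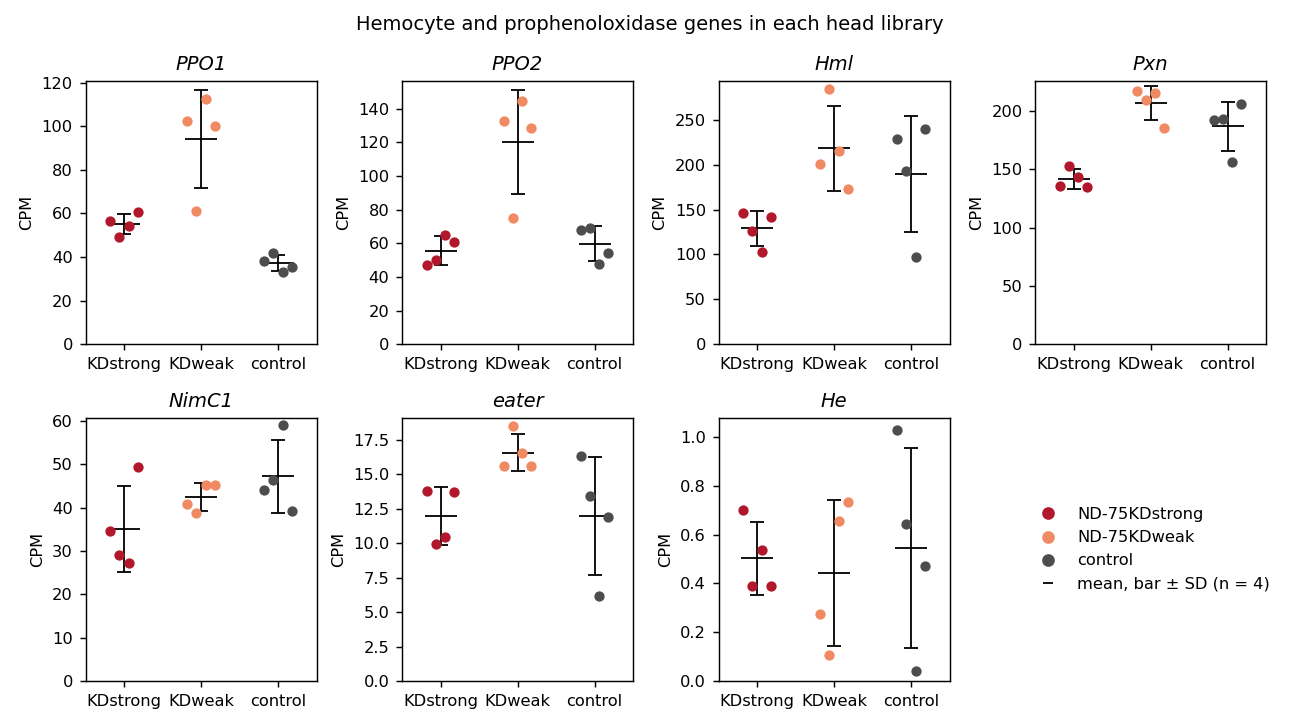
Levels of the 7 genes in CPM (vertical axes from 0), 1 dot per library in the order of replicates 1 to 4, with the mean and SD of the 4 libraries of each genotype. The ND-75KDweak libraries of *PPO1* and *PPO2* lie above the other genotypes with replicate 2 lowest, and the 4 ND-75KDstrong libraries of *Hml* and *Pxn* lie below all 4 ND-75KDweak libraries.

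*Hml* encodes hemolectin, a large secreted clotting protein whose promoter is a standard label of larval and adult plasmatocytes. It had 146, 126, 103 and 141 CPM in ND-75KDstrong heads, against 201, 284, 215 and 173 CPM in ND-75KDweak heads. The groups did not overlap, and *Hml* fell by 0.74 on the log2 scale (standard error 0.17, edgeR adjusted p = 0.0167). In the fit of all 12 libraries together this difference was -0.76 with an adjusted p of 0.0737. The ND-75KDweak library with the least *PPO1* and *PPO2*, replicate 2, had the most *Hml* of all 12 libraries.

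Control heads had 229, 193, 96.6 and 239 CPM of *Hml*, and replicate 3 was the lowest library of all. With it, both knockdowns overlapped the controls: the log2 fold change was -0.55 in ND-75KDstrong (standard error 0.26, edgeR adjusted p = 0.459) and 0.22 in ND-75KDweak (standard error 0.26, adjusted p = 0.669). Without control replicate 3, ND-75KDstrong was lower than control (log2 fold change -0.76, edgeR adjusted p = 0.0290), while the ND-75KDweak difference was -0.016 (adjusted p = 0.969). With any other single library left out, ND-75KDstrong against control was not called (edgeR adjusted p between 0.420 and 0.789). Control replicate 3 was the lowest library in *Hml*, so the larger fall without it follows in part from that choice. Whether the low feature count of that library bears on its *Hml* level was not tested.

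*Pxn* encodes peroxidasin, a matrix peroxidase that plasmatocytes secrete and that crosslinks type IV collagen. It had 136, 153, 143 and 135 CPM in ND-75KDstrong heads, against 217, 210, 216 and 186 CPM in ND-75KDweak heads. *Pxn* fell by 0.53 on the log2 scale (standard error 0.10, edgeR adjusted p = 0.00734), and this call held when any single library was left out (adjusted p between 0.00505 and 0.0329). Control heads had 192, 193, 156 and 206 CPM, which all 4 ND-75KDstrong libraries were below, by a log2 fold change of -0.40 (standard error 0.14, edgeR adjusted p = 0.276). The exact permutation test of log2 CPM gave an unadjusted p of 0.0286, which groups that do not overlap always give in this design. The ND-75KDweak difference from control was 0.16 (standard error 0.13, adjusted p = 0.517).

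The remaining 3 genes encode surface proteins of hemocytes. *eater*, a Nimrod-family receptor for bacteria that also holds hemocytes to tissues, had 13.8, 9.96, 10.4 and 13.7 CPM in ND-75KDstrong heads, against 15.6, 18.5, 16.6 and 15.6 CPM in ND-75KDweak heads. The groups did not overlap, yet the log2 fold change of -0.45 (standard error 0.14) had an edgeR adjusted p of 0.0616. DESeq2 size factors in edgeR gave 0.0435 and DESeq2 gave 0.0228, while the fit of all 12 libraries gave 0.275 and no filter gave 0.107. Control heads had 16.3, 13.5, 6.14 and 11.9 CPM, a range that held all 4 ND-75KDstrong libraries and 2 of the 4 ND-75KDweak libraries (edgeR adjusted p = 0.998 for ND-75KDstrong and 0.282 for ND-75KDweak, log2 fold change 0.0085 and 0.49). Without control replicate 3 the ND-75KDweak difference was 0.26 (edgeR adjusted p = 0.261).

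*NimC1*, a receptor for the uptake of bacteria and the antigen of a plasmatocyte antibody, had 34.6, 29.1, 27.2 and 49.3 CPM in ND-75KDstrong heads, 40.9, 38.7, 45.1 and 45.2 CPM in ND-75KDweak heads and 44.1, 46.4, 59.0 and 39.2 CPM in control heads. It was highest in control replicate 3 and ND-75KDstrong replicate 4, the 2 libraries with the fewest features detected, and so ran against *Hml* and *eater* in control replicate 3. It was called in none of the comparisons (edgeR adjusted p = 0.484 and 0.627 for ND-75KDstrong and ND-75KDweak against control, and 0.399 between the knockdowns). The log2 fold change between the knockdowns was -0.27 with all libraries, -0.48 without ND-75KDstrong replicate 4 (edgeR adjusted p = 0.0152), -0.31 without ND-75KDweak replicate 2 (adjusted p = 0.365) and -0.52 without both (adjusted p = 0.00649), so this result turned on ND-75KDstrong replicate 4.

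*He* encodes hemese, a surface glycoprotein of larval hemocytes. It had only 24, 9, 20 and 10 counts in ND-75KDstrong heads, 6, 2, 21 and 21 counts in ND-75KDweak heads and 21, 16, 1 and 15 counts in control heads. At this depth no difference could be resolved: the standard errors of its log2 fold changes were 0.60 for ND-75KDstrong and 0.69 for ND-75KDweak against control, and 0.48 between the knockdowns.

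Counted together, 2 of the 7 genes, *PPO1* and *PPO2*, rose and 0 fell in ND-75KDweak against control at an edgeR adjusted p under 0.05, where 2.56% of the 10415 features tested rose and 3.98% fell. For the same 2 genes all ND-75KDweak libraries were above all controls, as was the case for 6.57% of all features. In ND-75KDstrong against control 0 of 7 rose and 0 fell, where edgeR called 1.78% of 10522 features higher and 0.589% lower. Before adjustment 2 genes, *PPO1* and *Pxn*, had an edgeR p below 0.05, as did 11.4% of all features. DESeq2 called 1 gene, *PPO1*, and 3.72% of the 13542 features it gave an adjusted p. The same 2 were those whose groups did not overlap, *PPO1* upwards (4.65% of all features) and *Pxn* downwards (4.08% of all features). In ND-75KDstrong against ND-75KDweak 4 of 7, *PPO1*, *PPO2*, *Hml* and *Pxn*, fell and 0 rose, where 3.09% of 10638 features fell and 8.18% rose. With *eater* there were 5 of 7 whose ND-75KDstrong libraries were all below the ND-75KDweak libraries (7.65% of all features). The median log2 fold change of the 7 genes was 0.22 in ND-75KDweak against control, -0.10 in ND-75KDstrong against control and -0.53 between the knockdowns, beside medians over all features of -0.0065, -0.015 and 0.016. The 3 comparisons share libraries and are not independent of each other.

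**Figure D2:**
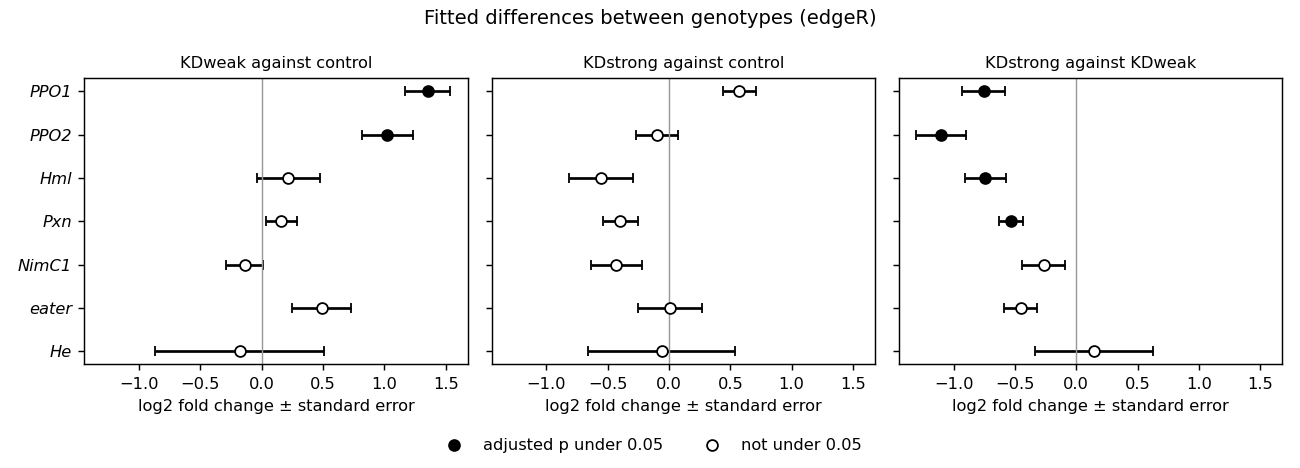
Fitted log2 fold changes of the 7 genes with their standard errors (edgeR, horizontal axis) in the 3 comparisons, filled where the adjusted p is under 0.05. *PPO1* and *PPO2* stand at 1.35 and 1.02 in ND-75KDweak against control, none is filled in ND-75KDstrong against control, and 4 genes between -1.10 and -0.53 are filled in ND-75KDstrong against ND-75KDweak.

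Ratios of raw counts inside a library need no scaling between libraries, and they set crystal cell genes against plasmatocyte genes. The log2 ratio of *PPO1* to *Hml* was -1.37, -1.36, -0.92 and -1.22 in ND-75KDstrong libraries, against -2.59, -2.21, -1.54 and -2.76 in control libraries. All 4 ND-75KDstrong ratios were above all controls, by 1.06 on average (exact permutation test over 70 splits, two-sided, p = 0.0286, the smallest this design can give). In ND-75KDweak libraries the ratios were -0.97, -2.21, -0.93 and -0.79. Their mean was 1.05 above that of the controls, but replicate 2 fell among the controls (exact permutation p = 0.0857). Without it the difference was 1.37, which had to be larger because the library left out was the lowest. The 2 knockdowns differed by 0.0099 (exact permutation p = 0.971), with SDs of 0.21 in ND-75KDstrong and 0.66 in ND-75KDweak (n = 4 each).

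With *Pxn* as the plasmatocyte gene, every knockdown library of both lines was above every control. The log2 ratio of *PPO1* to *Pxn* was higher than in controls by 0.97 in ND-75KDstrong and by 1.15 in ND-75KDweak (exact permutation p = 0.0286 for each). Between the knockdowns it differed by -0.19 (exact permutation p = 0.429). The ratio of *PPO2* to *Hml* differed from control by 0.38 in ND-75KDstrong (exact permutation p = 0.286) and by 0.72 in ND-75KDweak (p = 0.143).

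The ratio of the 2 prophenoloxidase genes to each other was examined after the counts had been seen. The log2 ratio of *PPO1* to *PPO2* was 0.27, -0.015, -0.26 and -0.00092 in ND-75KDstrong libraries, -0.38, -0.30, -0.36 and -0.37 in ND-75KDweak libraries and -0.84, -0.72, -0.53 and -0.61 in control libraries. The 3 genotypes formed 3 separate bands, ND-75KDstrong highest and control lowest. The differences were 0.67 for ND-75KDstrong against control, 0.32 for ND-75KDweak against control and 0.35 between the knockdowns (exact permutation p = 0.0286 for each of these 3). ND-75KDweak replicate 2, low in both genes, lay beside the other ND-75KDweak libraries in this ratio.

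**Figure D3:**
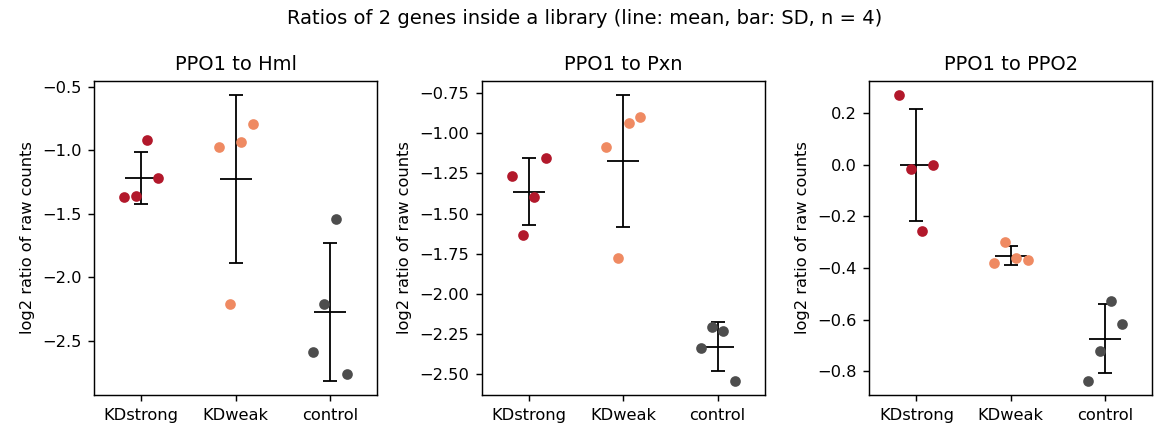
Log2 ratios of raw counts of *PPO1* to *Hml*, *Pxn* and *PPO2* in each library (dots, replicates 1 to 4 in order) with the mean and SD of the 4 libraries of a genotype. Controls are lowest on average in all 3 panels, ND-75KDweak replicate 2 falls among the controls in the ratio to *Hml*, and in the ratio to *PPO2* the 3 genotypes do not overlap.

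Covariation among the genes is given over the 12 libraries. *PPO1* and *PPO2* varied together, with a Pearson's r of log2 CPM of 0.86 (permutation test, p adjusted over 21 pairs = 0.0105) and a Spearman's rho of 0.70 (adjusted p = 0.0603). Since ND-75KDweak libraries lie apart for both genes, values were also centred by genotype, which gave an r of 0.89, and without the 2 libraries farthest from the median of *PPO1* the uncentred r was 0.70. *Hml* varied with *Pxn* (r 0.82 with adjusted permutation p = 0.0133, rho 0.74 with adjusted p = 0.0603, centred r 0.70, r 0.84 without the 2 farthest libraries) and with *eater* (r 0.80 with adjusted permutation p = 0.0105, rho 0.73 with adjusted p = 0.0603, centred r 0.88, r 0.64 without the 2 farthest). No pair passed on both measures, and each of the other pairs had an adjusted p above 0.05 on both. Among the other pairs, *PPO2* had a rho of 0.72 with *Pxn* and of 0.70 with *eater* (adjusted permutation p = 0.0603 each), with centred r of 0.19 and 0.24. *He*, at few counts, had a centred r of 0.64 with *PPO1*, 0.68 with *PPO2* and 0.68 with *eater*. Within genotypes *PPO1* and *Hml* showed little relation (centred r -0.12), and neither did *PPO2* and *Hml* (-0.086). *NimC1* and *Pxn* had a centred r of -0.68 but an uncentred r of 0.25 (adjusted permutation p = 0.710) and a rho of 0.063. All these values share the library and its scaling.

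**Figure D4:**
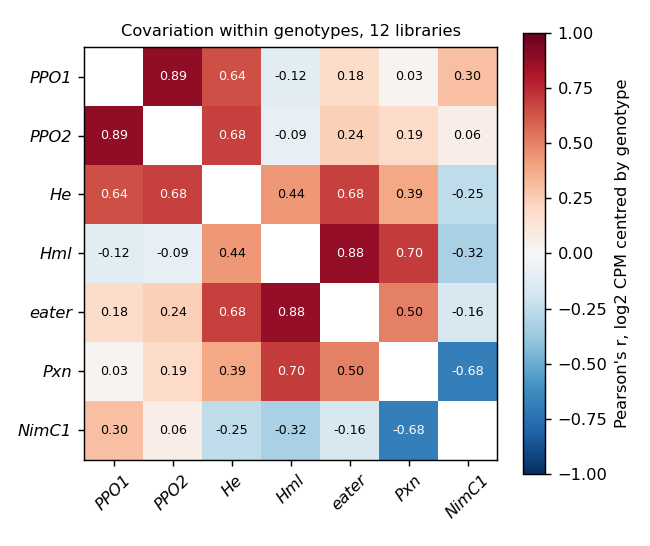
Pearson's r between the 7 genes over 12 libraries, from log2 CPM centred by genotype (colour from -1 to 1, value in each cell). *PPO1* with *PPO2* (0.89) and *Hml* with *eater* (0.88) are the darkest cells, and *NimC1* with *Pxn* (-0.68) is the lowest.

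Among 10825 other features, those most like each gene in log2 CPM over the 12 libraries differed from gene to gene. They were picked as the highest r in these same libraries, so a high r follows in part from that choice. *Ppn*, which encodes the matrix protein papilin, was closest to *Hml* (r 0.97, centred by genotype 0.98). *CG14329* (r 0.96, centred 0.69) and the cytochrome P450 gene *Cyp12a5* (r 0.94, centred 0.55) were closest to *PPO1*, and *CG10433* (r 0.95, centred 0.78) and *cbs* (r 0.93, centred 0.71) to *PPO2*. *IleRS-m* (r 0.96, centred 0.95) and *Stat92E*, the JAK/STAT pathway transcription factor (r 0.94, centred 0.93), were closest to *eater*. *CG6454* (r 0.92, centred 0.53) and *CG6280* (r 0.91, centred 0.58) were closest to *Pxn*. For *NimC1* they were *CG5903* and *Rack1*, which encodes a ribosome-bound scaffold (r 0.96 each, centred 0.95 and 0.98), followed by the ribosomal protein gene *RpL23A* (r 0.95, centred 0.95). For *He*, at few counts, the 2 closest were transposable element insertions.

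Of 56 tested genes in 5 related groups, 5.36% were called in ND-75KDweak against control, 0% in ND-75KDstrong against control and 14.3% between the knockdowns, beside 6.54%, 2.37% and 11.3% of all features in either direction. Of 17 genes of the melanization cascade and of phenol metabolism, 0 were called higher and 1 lower in ND-75KDweak against control. In ND-75KDstrong against control 0 were called, and between the knockdowns 3 were called higher and 0 lower. *stw*, which encodes a laccase of cuticle tanning, fell by 0.82 on the log2 scale in ND-75KDweak flies (edgeR adjusted p = 0.0378) and was higher in ND-75KDstrong than in ND-75KDweak flies by 1.34 (adjusted p = 0.00285), so it moved opposite to *PPO1* and *PPO2* in both. Its mean was 134 CPM in ND-75KDstrong, 53.7 CPM in ND-75KDweak and 95.5 CPM in control heads. *grass*, a serine protease of the Toll cascade (log2 fold change 0.41, adjusted p = 0.0337), and *AANAT1*, a dopamine N-acetyltransferase (0.43, adjusted p = 0.0387), were also higher in ND-75KDstrong than in ND-75KDweak flies. Among the genes not called were *Hayan* (log2 fold change -0.14) and *Sp7* (0.14 in ND-75KDweak against control), proteases that cleave prophenoloxidase.

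Of 17 other phagocytic receptors and relatives, 15 passed the filter. In ND-75KDweak against control 2 were called lower and 0 higher, in ND-75KDstrong against control 0 were called, and between the knockdowns 2 were called higher and 1 lower. *NimC4*, a receptor for dying cells, fell by 2.82 on the log2 scale in ND-75KDweak flies (mean 6.48 CPM, against 45.2 CPM in control heads, edgeR adjusted p = 0.0072) and was higher in ND-75KDstrong than in ND-75KDweak flies by 2.99 (adjusted p = 0.00211). *NimA*, a Nimrod gene 9776 bases from *NimC1*, changed the same way, by -1.69 and 2.20 (edgeR adjusted p = 0.00813 and 0.00116). Its levels were low, 0.592 to 1.73 CPM in ND-75KDweak and 3.01 to 4.41 CPM in control heads. *Sr-CI*, a scavenger receptor of plasmatocytes, was lower in ND-75KDstrong than in ND-75KDweak flies, with a mean of 29.9 CPM against 52.7 CPM (log2 fold change -0.81, adjusted p = 0.016). *drpr* and *crq*, receptors for cell debris, were not called in any comparison.

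Of 12 matrix and clot genes, 0 were called in either knockdown against control, and 2 fell in ND-75KDstrong against ND-75KDweak. These were *Ppn*, with a mean of 243 CPM in ND-75KDstrong and 496 CPM in ND-75KDweak heads (log2 fold change -1.02, edgeR adjusted p = 0.00128), and *Tg*, the transglutaminase that crosslinks the clot, with 40.0 CPM against 63.4 CPM (-0.65, adjusted p = 0.023). Of 10 hemocyte regulators 8 passed the filter and 0 were called in any comparison. Among them *lz*, the transcription factor that directs crystal cell fate, had 7.69 to 12.7 CPM in ND-75KDstrong, 10.9 to 15.5 CPM in ND-75KDweak and 10.6 to 15.8 CPM in control heads (edgeR adjusted p = 0.557 and 0.901 against control). Of 5 lamellocyte genes 4 passed and 0 were called. Their medians ran from -0.12 to 0.089 on the log2 scale.

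**Figure D5:**
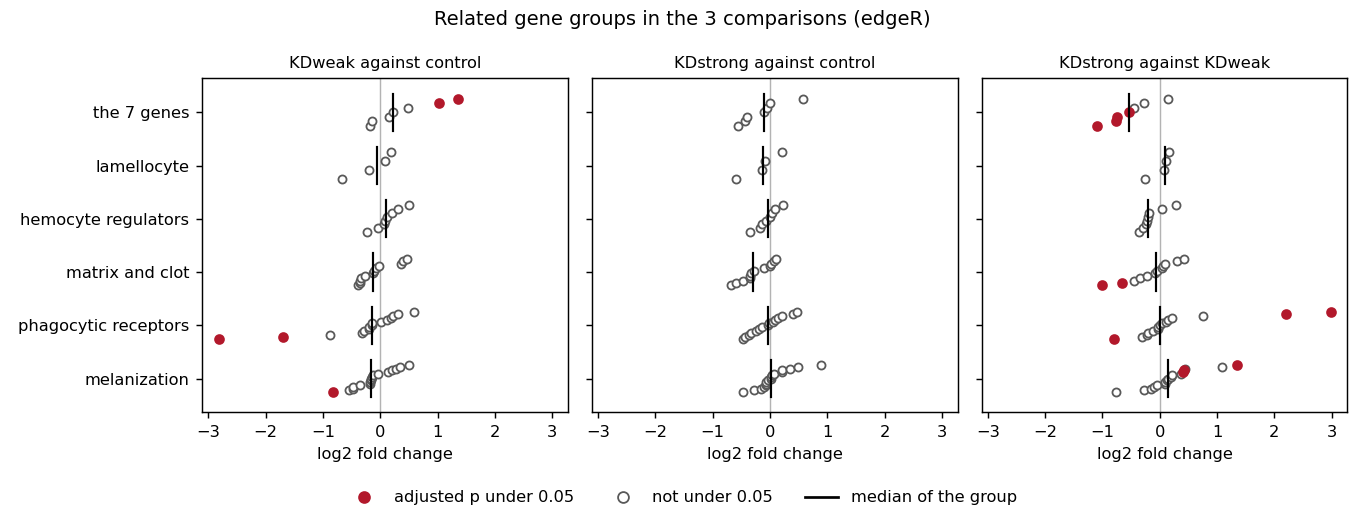
Log2 fold changes (edgeR, horizontal axis, shared by the panels) of every tested gene in 5 related groups and of the 7 genes, filled where the adjusted p is under 0.05, with the median of each group as a line. *NimC4* and *NimA* are the filled points at -2.82 and -1.69 in ND-75KDweak against control and at 2.99 and 2.20 between the knockdowns, and the regulators and lamellocyte genes have no filled point.

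Markers of other cell types in the head were compared beside these values. Over all features 6.54% were called in ND-75KDweak against control, 2.37% in ND-75KDstrong against control and 11.3% between the knockdowns. Of 8 neuronal and 8 glial genes, 0 were called in any comparison, which says little at these shares. The summed level of 11 fat body genes was 30241 to 72072 CPM in ND-75KDstrong, 55383 to 75467 CPM in ND-75KDweak and 36789 to 44030 CPM in control heads, with none of the 11 at 0 throughout a genotype. The yolk protein genes *Yp1*, *Yp2* and *Yp3* made up 82.1% to 94.1% of that sum, so it describes those genes more than the other fat body genes. In ND-75KDweak against control 3 of the 11 rose and 3 fell, among them *Yp2* and *Yp1* (log2 fold change 0.88 and 0.94, edgeR adjusted p = 0.0035 and 0.0151) upwards and *Fbp1* and *Lsp1gamma* (-3.75 and -3.05, adjusted p = 0.000101 and 0.000512) downwards. Both of the latter were at low levels. *Fbp1* had 0.249 to 0.804 CPM in ND-75KDweak and 5.98 to 9.16 CPM in control heads, and *Lsp1gamma* 0.125 to 0.315 CPM and 1.45 to 1.93 CPM. In ND-75KDstrong against control 2 of the 11 rose, *Lsp1gamma* and *Fbp1* (1.83 and 1.92, adjusted p = 0.0285 and 0.0453). *Fbp2*, a fat body gene, had 5.36 to 20.9 CPM in ND-75KDstrong heads, against 0 to 0.184 CPM in ND-75KDweak heads. Between the knockdowns 4 of the 11 rose and 1, the fatty acid synthase gene *FASN1*, fell (-0.71, adjusted p = 0.0278). Of the photoreceptor genes 1 of 10, *ninaE* (the main rhodopsin), was lower in ND-75KDstrong than in ND-75KDweak flies (log2 fold change -0.51, adjusted p = 0.0384). Of 8 muscle genes 7 passed, and *Mlc2*, a myosin light chain, fell in ND-75KDweak against control (-0.91, adjusted p = 0.0283) and was higher in ND-75KDstrong than in ND-75KDweak flies (0.70, adjusted p = 0.0259). Their part in the levels of the 7 genes was not tested. The 7 genes themselves summed to 404 to 461 CPM in ND-75KDstrong, 649 to 750 CPM in ND-75KDweak and 399 to 588 CPM in control heads, so the ND-75KDweak libraries were all above those of the other genotypes. This sum does not show that the genes rose as a set. *Hml* and *Pxn*, with means of 218 and 207 CPM in ND-75KDweak heads, weigh most in it and were not called against control. *PPO1* and *PPO2* rose from means of 37.1 and 59.7 CPM in control to 94.0 and 120 CPM, while the means of *NimC1* and *He* were lower than in control.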

How the data were processed

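RNA of pooled heads was sequenced as paired-end reads. Per the submitters' processing notes the reads were processed with fastp, HISAT2, featureCounts and DESeq2. Their versions were not given in the sources used here, nor was the build. The authors deposited 3 tables, 1 per comparison, with raw counts and FPKM values per library, 24 columns of normalized counts and the results of their own comparisons; the last 2 kinds were not used. The deposited counts of a library were the same in every table that held it (0 features differed), and the authors' FPKM values served only for levels between genes.

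Counts of the 8 libraries of a comparison were filtered (filterByExpr, minimum count 10, minimum total 15), scaled by TMM and tested over all features with edgeR 4.0.16 (quasi-likelihood, no block, Benjamini-Hochberg, threshold 0.05) in R 4.3.3. CPM used TMM factors over 12 libraries, and log2 CPM a prior count of 2. Ratios were tested exactly over libraries, correlations with 100000 permutations (Python 3.11.15). The scripts were tested on simulated data. Alternatives were DESeq2 1.42.0, other size factors, no filter, no transposable elements, 1 fit of all libraries, a replicate block and leaving out libraries.

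The 7 genes, the related lists and the tests were chosen with earlier results of these data known. Up to 4 called genes per direction, comparison and related list are named, up to 2 for other cell types, and the closest features by r up to the third. *PPO3*, *Hayan*, *Sp7*, *drpr*, *crq* and *lz* were named for their roles after their values had been seen. *Spn43Ac* is an older name of *nec* and was analysed under that name; *MP1*, *NimC3* and *ItgaPS3* were not analysed here.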

Additional observations from a re-analysis of the deposited data

Results flagged for a closer look

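The effects of the knockdowns differed for 4 of the 7 genes in a direct test of ND-75KDstrong against ND-75KDweak (edgeR quasi-likelihood test, Benjamini-Hochberg adjusted over all features). In that test 3.09% of 10638 features were called lower and 8.18% higher. Each knockdown is 1 RNAi line, so knockdown strength and line cannot be told apart. The difference on the log2 scale was -0.76 for *PPO1*, -1.10 for *PPO2*, -0.74 for *Hml* and -0.53 for *Pxn*, with adjusted p between 0.00609 and 0.0187. For each of the 4, all ND-75KDstrong libraries were below all ND-75KDweak libraries, as was the case for 7.65% of all features. In 21 groups of 4 libraries, 0 held a library far enough from the rest to pass Dixon's test.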

How the results depend on the processing

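Of 315 alternative values of the log2 fold changes of the 7 genes, 277 kept their direction and their side of the threshold, 20 crossed it and 18 changed sign. *PPO1* in ND-75KDweak against control kept its call in all, and no call changed sign. DESeq2 called 1120 features in ND-75KDweak against control and 504 in ND-75KDstrong against control. In ND-75KDstrong against control 1 of the 7 genes, *PPO1*, was called higher with DESeq2 size factors and with DESeq2. Leaving out control replicate 3 and ND-75KDweak replicate 2 gave 1534 called features. Leaving out control replicate 3 and ND-75KDstrong replicate 4 gave 532, with 1 of the 7 genes higher and 1 lower. Leaving out ND-75KDstrong replicate 4 and ND-75KDweak replicate 2 gave 2326. The cause was not tested.

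With 1 library left out, 340 to 913 features were called in ND-75KDweak against control (397, 416 and 340 without ND-75KDweak replicate 1, 3 and 4), 175 to 314 in ND-75KDstrong against control and 786 (without ND-75KDweak replicate 4) to 1688 between the knockdowns. The 7 genes then gave 1 to 2 higher calls in ND-75KDweak against control, 0 to 1 higher and 0 to 1 lower calls in ND-75KDstrong against control (both without control replicate 3), and 3 to 6 lower calls between the knockdowns.

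Signs changed only for differences that were not called. Leaving out both of the doubted libraries gave -0.17 for *Hml* and 0.020 for *NimC1* in ND-75KDweak against control, -0.25 for *eater* in ND-75KDstrong against control and -0.034 for *He* between the knockdowns. With 1 library left out the log2 fold changes ranged from -0.016 to 0.34 for *Hml* from -0.57 to 0.27 for *He* and from -0.23 to -0.022 for *NimC1* in ND-75KDweak against control, from -0.43 to 0.40 for *He* and from -0.20 to 0.19 for *eater* in ND-75KDstrong against control, and from -0.14 to 0.47 for *He* between the knockdowns.

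The difference in the *PPO1* to *Hml* log2 ratio ranged from 0.88 to 1.37 in ND-75KDweak against control, from 0.89 to 1.30 in ND-75KDstrong against control and from -0.32 to 0.16 between the knockdowns with 1 library left out. With *Pxn* in place of *Hml* it was 1.15 in ND-75KDweak against control, past the threshold, and -0.19 between the knockdowns.

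Same-numbered libraries did not deviate together (r from -0.15 to 0.054, -0.43 to -0.055 and -0.14 to 0.13 in the 3 comparisons), so there was no sign that the numbers pair the libraries. Deviations centred within groups of 4 libraries could miss a weak pairing, and the labels do not state one. With a replicate block 142 features were called in ND-75KDstrong against control, *He* was at 0.12 there, and the ratio difference of 1.06 had an exact p of 0.125, the smallest that 4 pairs allow; no other count moved by over 1.5 times.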
